A study of Mus musculus with 24 samples.

Results

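Collagens are the main structural proteins of the arterial wall, and each collagen molecule is a trimer of chains encoded by separate genes. The collagen chain genes were taken as the protein-coding genes whose symbol is made of Col, a type number, the letter a and a chain number in GENCODE mouse release 21. The rule found 44 genes among the 55421 genes listed for each library, and 42 of them had enough reads to be tested. The rule used names only and no expression value.

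Expression was measured by RNA sequencing of uninjured carotid arteries from female C57BL/6 mice, with 6 libraries in each of 4 groups and 1 animal number per library. The OVX group held ovariectomized mice given a cholesterol pellet as vehicle, the E2 group ovariectomized mice with a 75 µg estradiol pellet, and the E4 group ovariectomized mice with a 1 mg estetrol pellet. The TAM group received tamoxifen, whose dose and route, and whether these mice were ovariectomized, are not given in the sources used here. The study's methods place ovariectomy at 4 weeks of age and the pellets at 6 weeks for 2 weeks, whereas the series text gives 3 weeks of treatment and the labels an age of 9 weeks. The mice were wild type, so no transgene or deletion is shared by the groups, and carotid arteries were sequenced whole, with all cell types of the vessel and its surroundings together. The treatment field of the E4 libraries names the vehicle, and these libraries were assigned by their titles.

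Total counts ranged from 24647246 in E4 library C38 to 64221401, and the 44 collagen genes took 0.379% to 1.03% of them. Levels are in CPM, the usual depth-corrected read count, here with TMM scaling of library sizes. Fold changes come from edgeR's quasi-likelihood test across all genes, and a gene was called at a Benjamini-Hochberg adjusted p under 0.05. The stricter threshold used by the study, whose figure states fewer animals per group than used here, also asks for an absolute log2 fold change over 1. Smooth muscle, fibroblast and endothelial markers were present in every library, so the labelled tissue was found. Sympathetic ganglion markers (Th, Dbh and 8 others) summed to 39.2 CPM in OVX library C5 and 184 CPM in TAM library C35, against 1719 to 5933 in the other libraries, and both libraries are left out in alternatives. TAM C35 also had the highest sums of smooth muscle markers (8875 CPM, the other TAM libraries 3174 to 4547) and endothelial markers (1254 CPM). Parathyroid and thyroid markers summed to 3026 CPM in 1 E4 library, and T cell markers to 318 CPM in 1 E2 library. Animal numbers formed 2 separate series within each group, which neither the labels nor the methods call batches. Because each library is a separate animal number, the p-values measure the spread between these animals.

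In the vessel wall, fibrillar collagens I, III and V bear tensile load in the adventitia and media, type IV collagen forms the network of basement membranes under endothelium and around smooth muscle cells, and type VI collagen forms beaded filaments near cell surfaces. Fibril-associated collagens (FACIT) decorate fibrils, hexagonal networks are built by types VIII and X, and the multiplexins XV and XVIII sit at basement membranes and carry fragments that can be released by proteolysis. What the chains share is a triple helix, in which glycine must occupy 1 position of each repeating triplet of residues. Uninterrupted stretches of the helix are therefore coded with a glycine codon (GGN) at every ninth base.

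Of the 44 genes, 15 had a median of 100 CPM or more in OVX arteries, 20 had one between 1 and 100 CPM, and 9 had one under 1 CPM. Per kilobase of annotated exon, the highest median levels in OVX were those of Col3a1 (176 CPM per kb), Col1a2 (76.0), Col1a1 (65.6) and Col6a1 (54.4), followed by Col14a1, Col5a3 and Col4a1. The first 4 kept this order when the length of the longest coding transcript was used, where Col3a1 stood at 311 CPM per kb and Col1a2 at 177. The submitters' processing notes name Bowtie2, which by itself does not place a read across an intron. Collagen genes had a median of 48 exons against 7 over all protein-coding genes, with a median of 53.65% of the transcript in exons of at least 150 bases, the length of a read, against 86.81%. Whether reads across short exons were lost was not tested. Fold changes between groups compare the same gene with itself.

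Members differed in the length of the uninterrupted glycine repeat read from their transcripts. Fibrillar genes had a longest run of 216 to 344 triplets (median 338). Type IV genes reached only 39 to 66 triplets, with 23 to 27 runs of at least 3 triplets each, and the type VI genes 37 to 87. In the multiplexins Col15a1 and Col18a1 the longest run was 30. For each of the genes that dominate arterial collagen mRNA, the first exon of exactly 54 bases that is filled with 6 such triplets is shown, with the glycine codon that opens each triplet in capitals, 5′ to 3′ on the coding strand (GRCm38). They are exon 8 of 51 of Col1a1 (chr11:94939904-94939957, plus strand), exon 8 of 52 of Col1a2 (chr6:4515481-4515534, plus strand) and exon 6 of 51 of Col3a1 (chr1:45325360-45325413, plus strand).
Col1a1: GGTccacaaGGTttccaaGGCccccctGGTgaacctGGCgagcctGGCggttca
Col1a2: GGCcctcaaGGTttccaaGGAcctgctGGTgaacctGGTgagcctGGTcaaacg
Col3a1: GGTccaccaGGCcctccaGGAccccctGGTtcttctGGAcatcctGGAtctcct
Exons of this length numbered 21 in Col1a1, 24 in Col1a2 and 24 in Col3a1, but 1 to 3 in each type IV gene.

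With E4, 9 of the 42 tested collagen genes were lower than in OVX and 0 were higher, where 12% of all tested genes (2962 of 24646) were lower and 9.65% higher. The share of members called lower was 21.43%. At an unadjusted p under 0.05, 17 of the 42 members differed in either direction, as did 9125 of all 24646 tested genes. DESeq2 called 12 members, 3 of them higher, and its share over all genes is not given here. The lowered genes were the type I, III and V fibrillar genes Col1a1, Col1a2, Col3a1 and Col5a2, the type IV genes Col4a3 and Col4a4, the type VI genes Col6a5 and Col6a6, and the FACIT gene Col14a1. Col3a1 and Col6a6 also passed the stricter threshold, which 1.63% of all tested genes passed in the lower direction. The median log2 fold change of the 42 genes was 0.0031, against -0.0137 for all tested genes, and 21 of the 42 had a positive sign. In whole arteries, fewer cells of a type and less RNA per cell cannot be told apart.

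With E2, 6 members were lower and 0 higher, at a background of 1.23% lower and 2.65% higher among all tested genes. The 6 were Col4a4, Col6a5, Col6a6, Col14a1, the transmembrane collagen Col23a1 and the fibrillar gene Col27a1. At an unadjusted p under 0.05, 13 of the 42 members differed, as did 3923 of all 24646 tested genes, and DESeq2 called 7 members. Col6a5 and Col6a6 passed the stricter threshold, as did 0.325% of all tested genes in the lower direction. The median over the 42 genes was -0.24 on the log2 scale (all genes 0.0056), and 31 of the 42 had a negative sign, most without a call. With the B cell marker mean as a covariate 3 were called, Col6a5, Col6a6 and Col23a1, and the genes that lost the call stood at -0.48 (Col4a4), -0.55 (Col14a1) and -0.40 (Col27a1). Macrophage markers (8 genes) summed to 966 to 1485 CPM with E2 and 578 to 1041 in OVX, with 7 of 8 higher, and their part in the E2 values was not tested.

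With TAM, 3 members were higher and 0 lower, where 1.29% of all tested genes were higher and 0.919% lower. They were Col1a1, Col1a2 and the multiplexin Col15a1, and the median over the 42 genes was 0.21 (all genes -0.0033). Without OVX C5 and TAM C35 the call of Col1a1 alone was left, and with the B cell marker mean as a covariate 0 members were called and 8 had an unadjusted p under 0.05. Log2 fold changes in that fit were 0.73 for Col1a1, 0.64 for Col1a2 and 0.405 for Col15a1, against 0.75, 0.61 and 0.52 without the covariate. B cell markers summed to 4.41 to 11.5 CPM with TAM against 6.19 to 39.4 in OVX. DESeq2 called 8 members, all higher. An unadjusted p under 0.05 was reached by 14 of the 42 members and by 5256 of all 25033 tested genes. The E4, E2 and TAM comparisons share the 6 OVX libraries, so they are not independent of each other.

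**Figure D1:**
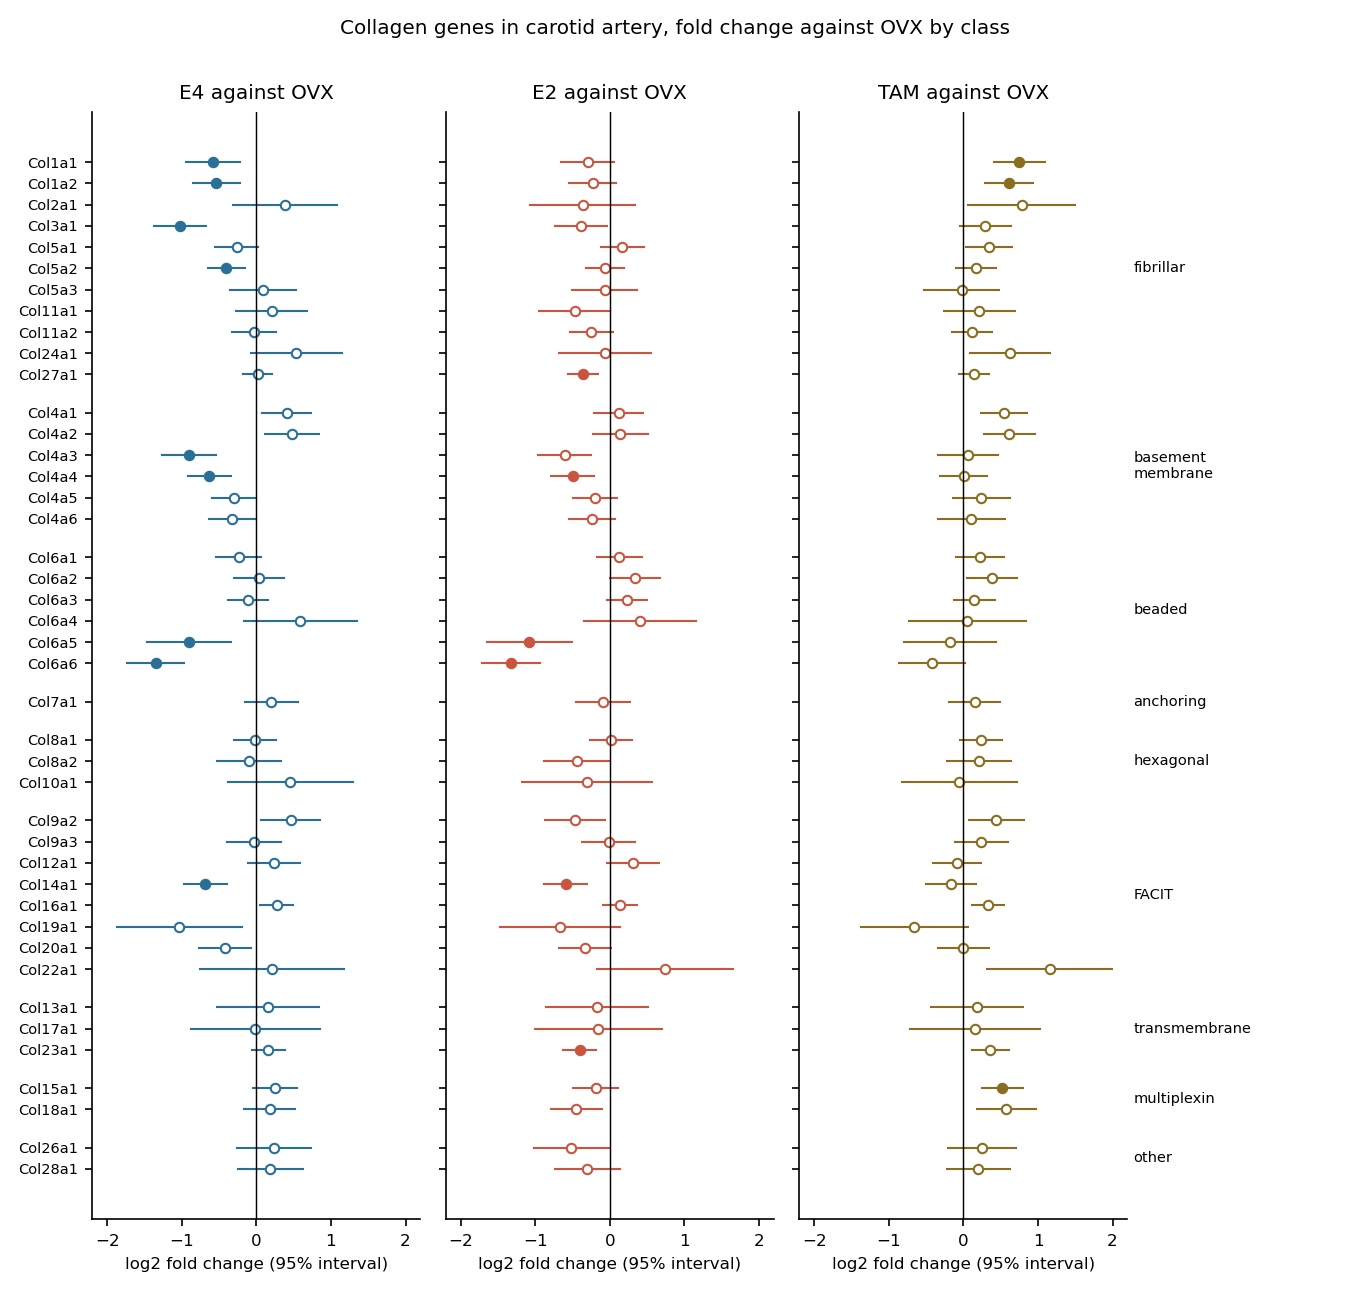
Log2 fold change against OVX (x axis) for the 42 tested collagen genes (rows, grouped by class), with 95% intervals as lines, in E4, E2 and TAM. Filled points passed an adjusted p under 0.05: 9 genes to the left in E4, 6 to the left in E2 and 3 to the right in TAM.

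The fibrillar genes encode the rods that assemble into collagen fibrils, with Col3a1 alone forming the type III homotrimer. Col3a1 (ENSMUSG00000026043, chr1:45311538-45349706 on GRCm38) ranged from 1337 to 2397 CPM in OVX arteries with a median of 1731, from 1137 to 1699 with E2 (median 1392), from 676 to 1188 with E4 (median 866) and from 1618 to 2900 with TAM (median 2130). Every E4 library lay below every OVX library, whereas E2 and TAM overlapped OVX. Expression fell with E4 (log2 fold change -1.02, SE 0.166, 95% interval -1.37 to -0.67, edgeR adjusted p = 0.00139), and the difference kept its call in each of the 12 fits that left out 1 library. With E2 the log2 fold change was -0.38 (SE 0.16, edgeR adjusted p = 0.246) and with TAM 0.29 (SE 0.16, edgeR adjusted p = 0.31). Differences of mean log2 CPM were -1.26 in the first number series and -0.77 in the second for E4 against OVX.

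Col1a1 and Col1a2 encode the chains of type I collagen. Col1a1 (chr11:94936224-94953042) spanned 285 to 583 CPM in OVX (median 431), 332 to 402 with E2 (median 360), 216 to 414 with E4 (median 293) and 605 to 913 with TAM (median 731). All TAM libraries stood above all OVX libraries, and E4 overlapped OVX. It fell with E4 (log2 fold change -0.58, SE 0.17, edgeR adjusted p = 0.0246) and rose with TAM (0.75, SE 0.16, edgeR adjusted p = 0.0232). Without E4 library C19, C20 or C38 in turn the E4 call was lost (edgeR adjusted p = 0.0584, 0.0554 and 0.0519), and without OVX library C3 the TAM call was lost (edgeR adjusted p = 0.0662). With OVX C5 and TAM C35 left out together, the TAM fold change of Col1a1 was 0.78 (edgeR adjusted p = 0.0248).

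Col1a2 (chr6:4504814-4541544) moved with its partner chain. Its CPM lay between 689 and 1245 in OVX (median 945), 788 and 951 with E2 (median 802), 502 and 863 with E4 (median 671), and 1158 and 2049 with TAM (median 1433). The log2 fold change was -0.53 with E4 (SE 0.15, edgeR adjusted p = 0.0206) and 0.61 with TAM (SE 0.15, edgeR adjusted p = 0.0401). Groups overlapped in both comparisons. The E4 call was lost without E4 C19 or C20 (edgeR adjusted p = 0.0504 and 0.0509), and the TAM call held in only 3 of 12 fits without 1 library, reaching an edgeR adjusted p of 0.12 without OVX C3. It was lost with the number series as a covariate (0.60, edgeR adjusted p = 0.0541). For neither type I gene did the difference between E2 and OVX pass (log2 fold changes -0.30 and -0.23, edgeR adjusted p = 0.437 and 0.523). With the fibroblast marker mean as a covariate, chosen after seeing the data, E2 passed for Col1a2 (-0.40, edgeR adjusted p = 0.0374) and for Col3a1 (-0.58, edgeR adjusted p = 0.00313).

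**Figure D2:**
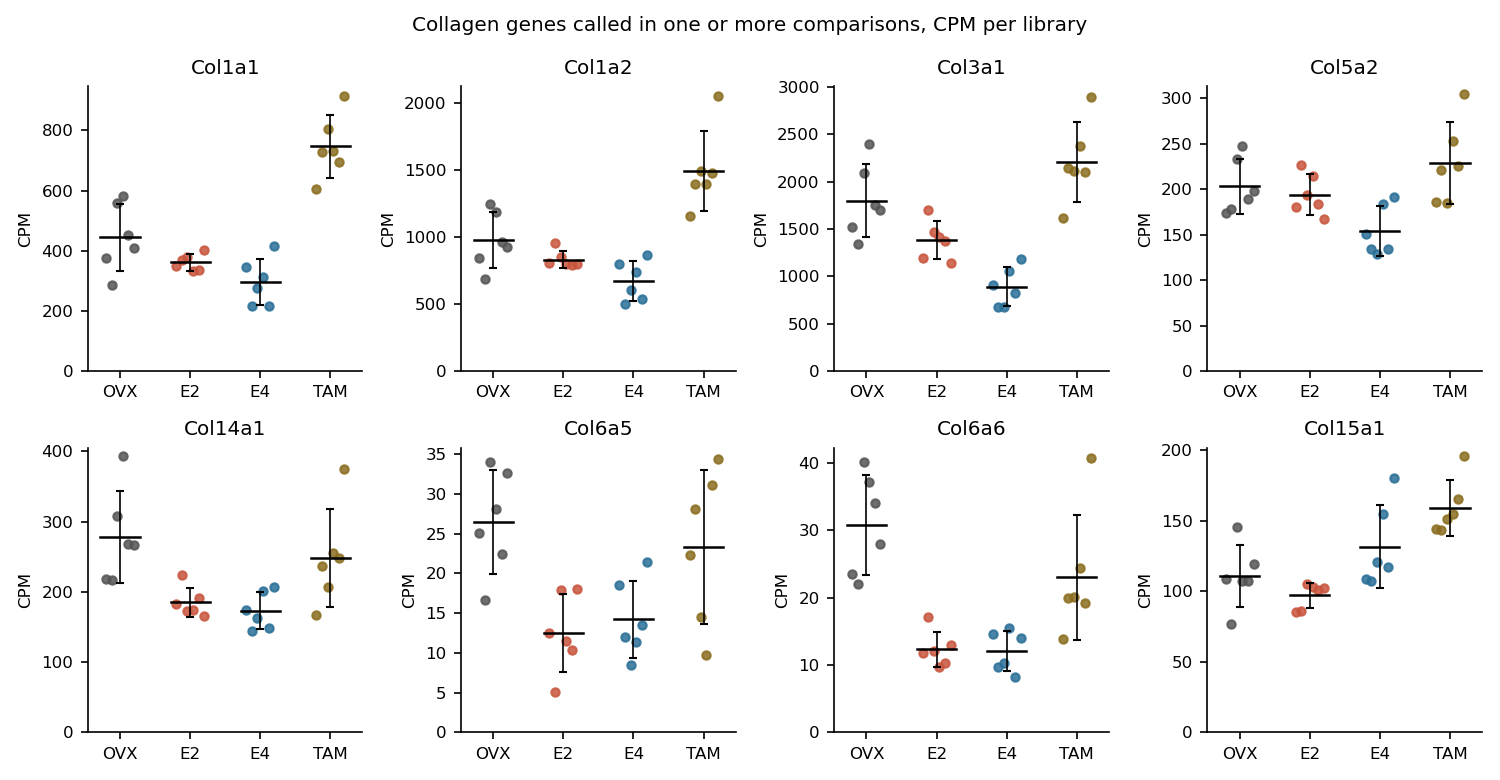
CPM of 8 collagen genes (y axis, from 0) in each library of the 4 groups (x axis), with points for libraries, bars for group means and whiskers for SD (n = 6). Col3a1 and Col6a6 show E4 libraries wholly below OVX, and Col1a1 shows TAM libraries wholly above OVX.

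The balance of type III to type I chains was compared within libraries as the ratio of counts, which does not depend on scaling between libraries. Col3a1 counts were 3.75 to 4.70 times those of Col1a1 in OVX (median 4.07), 2.82 to 4.60 times with E2 (median 3.99), 2.47 to 3.79 times with E4 (median 3.00) and 2.63 to 3.24 times with TAM (median 2.98). The mean log2 ratio was lower by 0.44 with E4 (difference -0.442, two-sided exact permutation p = 0.00433, adjusted over 6 tests 0.013) and by 0.48 with TAM (difference -0.479, exact permutation p = 0.00216, adjusted 0.013), the latter being the smallest p that 6 against 6 libraries allow. With E2 the difference did not pass (-0.109, exact permutation p = 0.403, adjusted 0.403). The lower ratio was reached at different levels: under E4 the median of Col3a1 was 866 CPM and that of Col1a1 293, while under TAM they were 2130 and 731. Left-out libraries kept the difference between -0.508 and -0.384 for E4 and between -0.508 and -0.440 for TAM.

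The ratio of Col1a1 to Col1a2 counts, the chains of one heterotrimer, was 0.413 to 0.492 in OVX (median 0.448), 0.388 to 0.507 with E2 (median 0.430), 0.406 to 0.480 with E4 (median 0.430) and 0.446 to 0.540 with TAM (median 0.523). The difference in mean log2 ratio did not pass with E4 (-0.0469, exact permutation p = 0.353, adjusted 0.403) or with E2 (-0.0553, exact permutation p = 0.398, adjusted 0.403). With TAM it was 0.158 higher (exact permutation p = 0.0281), which did not pass after adjustment (adjusted p = 0.0563). Together, Col1a1, Col1a2 and Col3a1 made up a median of 53.1% of collagen CPM in OVX, 48.2% with E2, 40.8% with E4 and 56.9% with TAM.

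**Figure D3:**
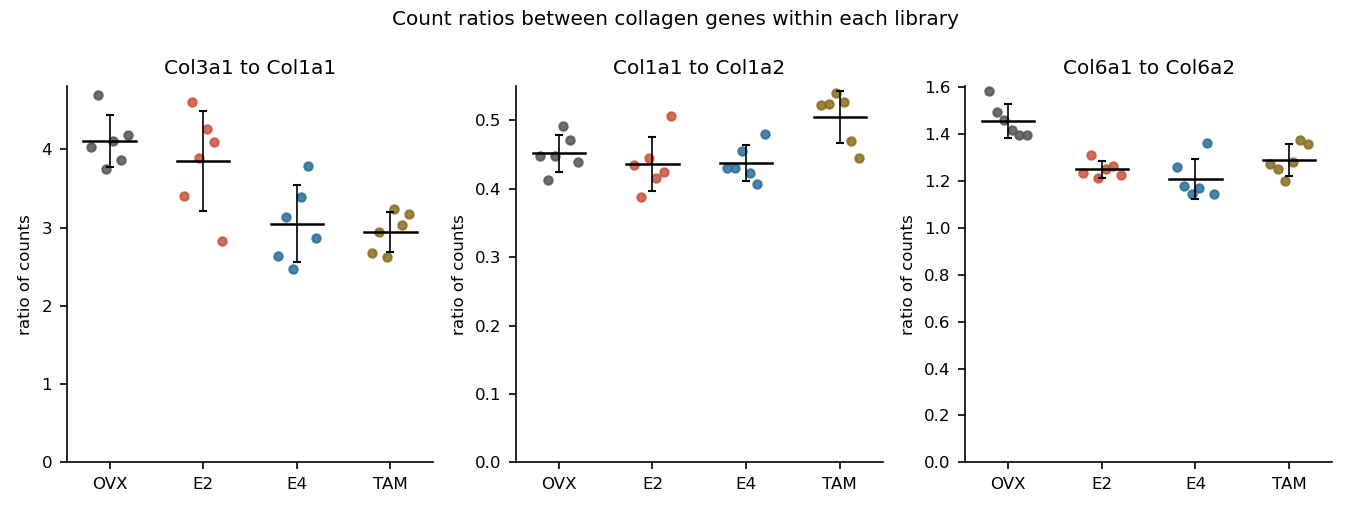
Ratio of counts between pairs of collagen genes within each library (y axis, from 0) in the 4 groups (x axis), with points for libraries, bars for means and whiskers for SD (n = 6). The Col3a1 to Col1a1 ratio had medians of 4.07 in OVX and 3.99 with E2, and of 3.00 with E4 and 2.98 with TAM.

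Type V collagen starts and limits the width of type I fibrils. Col5a2, which lies tail to tail with Col3a1 on chromosome 1 with 24614 bases between them, spanned 174 to 248 CPM in OVX (median 194), 167 to 227 with E2 (median 188), 129 to 192 with E4 (median 143) and 184 to 305 with TAM (median 223). It fell with E4 (log2 fold change -0.40, SE 0.12, edgeR adjusted p = 0.0265), with overlapping groups, and the call was lost in 5 of 12 fits without 1 library (E4 C19, C20 or C38, OVX C4 or C5), with edgeR adjusted p from 0.0508 to 0.0676. Col5a1 had 140 to 212 CPM in OVX (median 165), 184 to 219 with E2 (median 190), 115 to 207 with E4 (median 130) and 170 to 314 with TAM (median 205), and none of its differences from OVX passed (E4 log2 fold change -0.26, SE 0.14, edgeR adjusted p = 0.174). Col5a3 was at a median of 258 CPM in OVX and 256 with E4.

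Among the other fibrillar genes, Col27a1 fell with E2. Its full values are given although 4 fibrillar genes changed more, a choice made after they were seen. It ranged from 67.9 to 75.7 CPM in OVX (median 71.0) and from 45.7 to 63.9 with E2 (median 57.2), without overlap, and from 58.8 to 84.0 with E4 (median 73.3). The log2 fold change with E2 was -0.36 (SE 0.094, edgeR adjusted p = 0.0363), and 3 of 12 fits without 1 library kept the call, with an edgeR adjusted p of 0.0925 without E2 C27. Col2a1, Col11a1, Col11a2 and Col24a1, of which the first is the main fibrillar collagen of cartilage, had OVX medians of 0.631, 7.18, 10.6 and 1.84 CPM and passed in no comparison with OVX. Cartilage markers (8 genes) summed to 24.9 to 36.8 CPM in OVX, 17.5 to 23.5 with E2, 21.3 to 26.7 with E4 and 26.7 to 31.3 with TAM, and of these Matn1 stayed under 0.1 CPM in every library. Of 6 cartilage markers tested, 2 were lower with E4 and 1 with E2, and their part in these values was not tested.

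Marker levels of other cells moved with the E4 group. Fibroblast markers (10 genes, among them Pdgfra and Pi16) summed to 4245 to 8126 CPM in OVX and 3867 to 6573 with E4, with 4 of 10 lower by E4 and 0 higher, whereas with E2 they summed to 6667 to 8696. B cell markers (8 genes) summed to 6.19 to 39.4 CPM in OVX and 3.69 to 8.04 with E4, with 7 of 8 lower. With the fibroblast marker mean as a covariate, 5 members were called with E4, and Col3a1 (log2 fold change -0.68, edgeR adjusted p = 0.00462), Col4a3, Col6a6 and Col14a1 stayed lower, while Col6a2 was higher (0.39, edgeR adjusted p = 0.0486). Most fold changes were smaller in that fit, at -0.28 for Col1a1, -0.24 for Col1a2, -0.14 for Col5a2, -0.32 for Col4a4 and -0.35 for Col14a1, while Col6a5 stood at -0.87 without a call (edgeR adjusted p = 0.11). With the B cell marker mean as a covariate, Col6a6 alone was called (log2 fold change -1.30, edgeR adjusted p = 0.0377). Among the genes that lost the call in that fit, Col3a1 was at -0.998 (edgeR adjusted p = 0.0958) and Col14a1 at -0.61 (edgeR adjusted p = 0.249), against -1.02 and -0.69 without the covariate. Col1a1 was at -0.70 (edgeR adjusted p = 0.287) and Col6a5 at -1.31 (edgeR adjusted p = 0.155), against -0.58 and -0.90 without it. Values of the other genes that lost the call are not given here. Ganglion markers summed to 3493 to 5933 CPM with E4 and 39.2 to 4366 in OVX, with 0 of 10 called. With their mean as a covariate Col1a1, Col1a2 and Col5a2 lost the call (-0.45, -0.43 and -0.29, edgeR adjusted p = 0.0758, 0.0579 and 0.0926), and Col4a2 and Col12a1 were called higher (0.57 and 0.46, edgeR adjusted p = 0.0413 and 0.0328). The part of these cells in the collagen values was not tested beyond these fits.

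Type IV collagen genes lie head to head in pairs, with the 2 genes of a pair read in opposite directions from a shared region. Col4a1 and Col4a2, the chains of the ubiquitous network, overlap by 22 bases at their starts (chr8:11312805-11312826), and Col4a3 and Col4a4, chains of the network known from kidney, lung and inner ear, have 71 bases between them (chr1:82586850-82586920). Col4a5 and Col4a6 are 1308 bases apart on the X chromosome. The shared stretches are shown because the results are given by pair, from RefSeq sequence of GRCm38.p6, 5′ to 3′ on the plus strand, with matches to the GC box (GGGCGG on either strand) in capitals.
Col4a1/Col4a2: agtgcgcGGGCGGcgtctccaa
Col4a3/Col4a4: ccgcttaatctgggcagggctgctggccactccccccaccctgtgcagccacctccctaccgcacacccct
The first holds 1 GC box and 72.7% G and C, and the second holds none at 69.0% G and C.

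The Col4a3 and Col4a4 pair was lower with E4. Col4a3 lay between 16.7 and 34.5 CPM in OVX (median 24.8), 12.8 and 21.7 with E2 (median 15.6), 10.3 and 17.97 with E4 (median 12.7), and 18.4 and 39.7 with TAM (median 25.1). A single E4 library, C36 at 17.97 CPM, exceeded the lowest OVX library. Its log2 fold change was -0.90 with E4 (SE 0.17, edgeR adjusted p = 0.00309) and -0.61 with E2, where the test was missed (SE 0.17, edgeR adjusted p = 0.0545). Of its exon length, 5.65% is shared with a gene on the opposite strand, and the strand setting of the counting is not given in the sources used here.

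Col4a4, which starts from the same region, ranged from 36.5 to 61.6 CPM in OVX (median 42.7), from 26.7 to 43.0 with E2 (median 30.9), from 22.4 to 34.4 with E4 (median 29.1) and from 34.1 to 64.8 with TAM (median 43.7). E4 and OVX libraries did not overlap. It fell with E4 (log2 fold change -0.63, SE 0.14, edgeR adjusted p = 0.00563), a call that held in all 12 fits without 1 library, and with E2 (-0.50, SE 0.14, edgeR adjusted p = 0.046), a call that held in only 2 of 12, with an edgeR adjusted p of 0.11 without OVX C4. With the number series as a covariate the E2 call was also lost (-0.48, edgeR adjusted p = 0.0611). With TAM both genes were near OVX, at log2 fold changes of 0.06 and 0.0021.

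The Col4a1 and Col4a2 pair stood on the other side of OVX. Col4a1 had 162 to 296 CPM in OVX (median 252), 208 to 317 with E2 (median 281), 245 to 443 with E4 (median 308) and 305 to 438 with TAM (median 342), so that all TAM libraries exceeded all OVX libraries. Col4a2 had 94.3 to 175 CPM in OVX (median 137), 116 to 197 with E2 (median 157), 138 to 286 with E4 (median 181) and 179 to 261 with TAM (median 197). Log2 fold changes with E4 were 0.41 (SE 0.16, edgeR adjusted p = 0.0689) and 0.48 (SE 0.17, edgeR adjusted p = 0.0556), and with TAM 0.55 (SE 0.15, edgeR adjusted p = 0.0547) and 0.62 (SE 0.17, edgeR adjusted p = 0.0503). None of these passed in the test as planned, while DESeq2 called both genes in both comparisons, and without OVX C5 the E4 differences passed (edgeR adjusted p = 0.0461 and 0.034). With the B cell marker mean as a covariate the E4 fold changes were 0.16 and 0.23 (edgeR adjusted p = 0.81 and 0.759), and without a filter on low counts the E4 differences had an edgeR adjusted p of 0.104 and 0.0823. Counts of Col4a1 were 1.69 to 1.84 times those of Col4a2 in OVX and 1.55 to 1.80 times with E4.

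Col4a5 and Col4a6, the X-linked pair that contributes to smooth muscle basement membranes, had OVX medians of 127 and 98.4 CPM and E4 medians of 86.9 and 78.0, with log2 fold changes of -0.30 and -0.32 that did not pass (edgeR adjusted p = 0.123 and 0.119). Of the 6 type IV genes 2 were lower with E4 and 0 higher, where 12% of all tested genes were lower and 9.65% higher. The 95% intervals of Col4a1 (0.08 to 0.74) and Col4a4 (-0.92 to -0.34) did not meet.

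**Figure D4:**
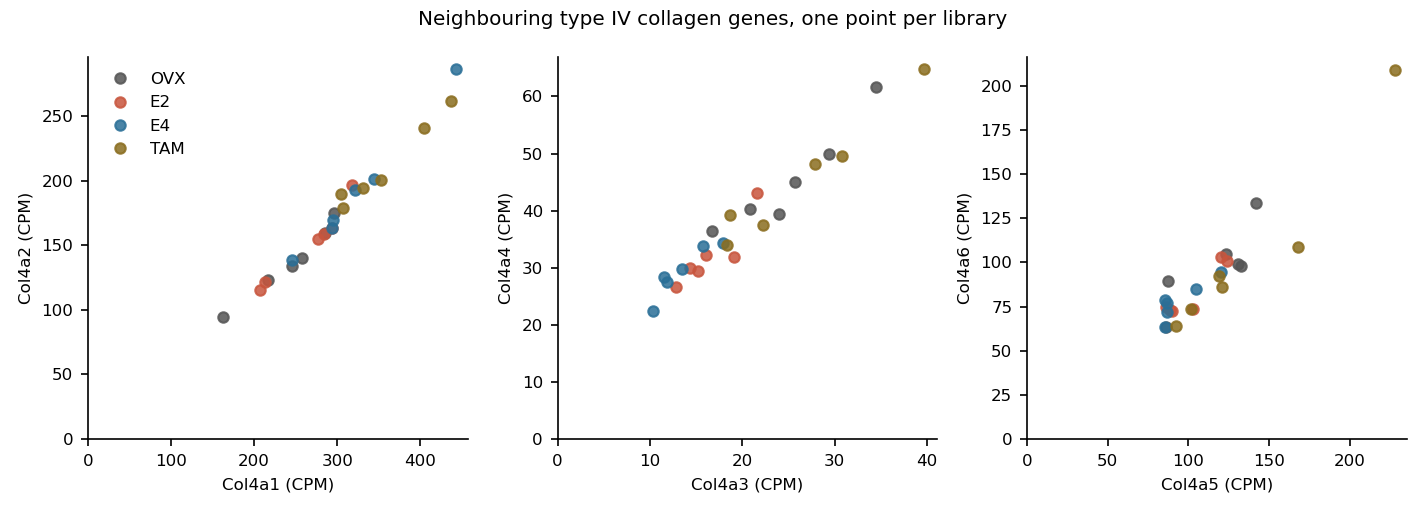
CPM of the 2 genes of each type IV collagen pair, one gene per axis and both axes from 0, with 1 point per library coloured by group. E4 medians stand above OVX medians for Col4a1 and Col4a2 (308 and 181 against 252 and 137 CPM) and below them for Col4a3 and Col4a4 (12.7 and 29.1 against 24.8 and 42.7 CPM).

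Type VI collagen is assembled from Col6a1, Col6a2 and a long chain, classically Col6a3, with Col6a4, Col6a5 and Col6a6 as alternative long chains whose genes lie next to each other on chromosome 9. Col6a6 (chr9:105687809-105828160) spanned 22.02 to 40.1 CPM in OVX (median 31.0), 9.72 to 17.1 with E2 (median 11.9), 8.23 to 15.5 with E4 (median 12.2) and 13.9 to 40.7 with TAM (median 20.1). Neither the E2 nor the E4 libraries overlapped the OVX libraries. It fell with E4 (log2 fold change -1.35, SE 0.18, edgeR adjusted p = 0.000461) and with E2 (-1.32, SE 0.18, edgeR adjusted p = 0.000193), in each of the 12 fits that left out 1 library of either comparison. With TAM the value was -0.42 (SE 0.22, edgeR adjusted p = 0.268), and the highest TAM library was C35 with 40.7 CPM. Between E4 and E2 the difference was -0.03, with a 95% interval from -0.41 to 0.35.

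Col6a5 (chr9:105856078-105960643) was at 16.7 to 34.0 CPM in OVX (median 26.6), 5.06 to 18.02 with E2 (median 12.01), 8.47 to 21.5 with E4 (median 12.7) and 9.75 to 34.4 with TAM (median 25.2). The ranges of E2 and E4 each reached into the lower end of OVX. Log2 fold changes were -1.08 with E2 (SE 0.27, edgeR adjusted p = 0.028) and -0.90 with E4 (SE 0.27, edgeR adjusted p = 0.0258). The E4 call was lost without E4 C19, C20 or C36 (edgeR adjusted p from 0.0531 to 0.0629) and the E2 call in 5 of 12 fits (OVX C4 or C25, E2 C6, C26 or C27, edgeR adjusted p from 0.056 to 0.0706).

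The stretches upstream of the RefSeq starts of these 2 neighbours are shown for their shared fall with both estrogens, 5′ to 3′ on the minus strand of GRCm38.p6, at chr9:105960644-105960893 for Col6a5 and chr9:105828161-105828335 for Col6a6, where the part inside the GENCODE gene was left off. Capitals mark matches to GGTCA, the core of an estrogen response element (either strand), or a GC box (GGGCGG, either strand).
Col6a5: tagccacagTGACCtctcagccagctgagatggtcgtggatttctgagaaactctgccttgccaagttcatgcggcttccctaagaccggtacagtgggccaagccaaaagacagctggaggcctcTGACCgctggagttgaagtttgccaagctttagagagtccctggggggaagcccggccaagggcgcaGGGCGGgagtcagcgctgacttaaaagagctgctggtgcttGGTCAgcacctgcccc
Col6a6: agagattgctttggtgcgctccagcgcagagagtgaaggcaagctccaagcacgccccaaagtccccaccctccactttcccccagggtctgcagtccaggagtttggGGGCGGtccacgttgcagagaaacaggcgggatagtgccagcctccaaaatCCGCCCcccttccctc
Col6a5 held 3 GGTCA cores and 1 GC box, and Col6a6 held 0 cores and 2 GC boxes. Over the 38 windows of 250 bases that the RefSeq table gives for 35 of the 44 collagen genes, 36.842% held the GGTCA core, against 35.241% of all 32851 windows, and 57.895% held a GC box, against 32.742%. The full palindrome GGTCANNNTGACC occurred in 0 of the 38 and in 0.064% of all windows. These are matches of letters only. Col1a1, Col2a1, Col4a3, Col5a2, Col9a3, Col12a1, Col14a1, Col22a1 and Col26a1 have no entry in the table used.

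The main chains of type VI collagen were called in no comparison with OVX in the test as planned. Col6a1 ranged from 210 to 343 CPM in OVX (median 238), from 271 to 321 with E2 (median 277), from 170 to 300 with E4 (median 213) and from 227 to 453 with TAM (median 282). Col6a2 ranged from 134 to 242 CPM in OVX (median 171), from 215 to 245 with E2 (median 226), from 125 to 262 with E4 (median 177) and from 178 to 334 with TAM (median 222). Col6a3, the long chain, ranged from 149 to 211 CPM in OVX (median 169), from 194 to 216 with E2 (median 205), from 126 to 223 with E4 (median 144) and from 157 to 258 with TAM (median 186). None of the 9 differences from OVX passed, and their log2 fold changes ran from -0.24 (Col6a1 with E4) to 0.38 (Col6a2 with TAM). The 95% interval of Col6a3 with E4, from -0.38 to 0.16, did not meet that of Col6a6, from -1.74 to -0.96. It did meet that of Col6a5, from -1.46 to -0.34. Col6a4 was at or below 1.04 CPM in all libraries.

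Counts of Col6a1 were 1.40 to 1.58 times those of Col6a2 in OVX, 1.21 to 1.31 times with E2, 1.14 to 1.36 times with E4 and 1.2 to 1.37 times with TAM. In each treated group all 6 libraries lay below all 6 OVX libraries. This ratio was chosen after its values were seen and was not tested.

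Among the FACIT genes, which encode collagens that bind to fibril surfaces, Col14a1 was the most abundant. It was the only one called against OVX in the test as planned. Col14a1 (chr15:55307750-55520803) ranged from 218 to 393 CPM in OVX (median 267), from 165 to 223 with E2 (median 179), from 144 to 207 with E4 (median 169) and from 167 to 375 with TAM (median 242). E4 libraries did not overlap OVX, and the highest E2 library slightly exceeded the lowest OVX library. It fell with E4 (log2 fold change -0.69, SE 0.14, edgeR adjusted p = 0.00391) and with E2 (-0.59, SE 0.14, edgeR adjusted p = 0.0182), and each call held in all 12 fits without 1 library. With TAM the log2 fold change was -0.17 (SE 0.16, edgeR adjusted p = 0.588).

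Col9a2, a FACIT gene best known from cartilage, was at low levels of 1.87 to 3.77 CPM in OVX (median 3.08), 1.32 to 2.86 with E2 (median 2.19), 3.46 to 5.04 with E4 (median 4.02) and 3.32 to 4.85 with TAM (median 4.22). E4 and E2 libraries did not overlap. Col12a1 and Col16a1 had OVX medians of 19.6 and 36.6 CPM, and Col20a1 of 11.03 CPM, and none was called against OVX in the test as planned. DESeq2 called Col16a1 higher with E4 (0.288, DESeq2 adjusted p = 0.043) and with TAM (0.344, DESeq2 adjusted p = 0.0268). Col9a3, Col19a1 and Col22a1 had OVX medians of 1.52, 0.416 and 0.205 CPM. Col9a1 did not pass the filter, with at most 12 counts in a library.

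The multiplexins XV and XVIII are proteoglycans of the basement membrane zone, and Col18a1 carries the endostatin domain. Col15a1 had 77.1 to 145 CPM in OVX (median 108), 85.6 to 105 with E2 (median 102), 108 to 180 with E4 (median 119) and 144 to 196 with TAM (median 153). Only the highest OVX library reached into the TAM range. It rose with TAM (log2 fold change 0.52, SE 0.13, edgeR adjusted p = 0.043), but 2 of 12 fits without 1 library kept the call, with an edgeR adjusted p of 0.126 without OVX C3. Col18a1 had 145 to 258 CPM in OVX (median 199), 123 to 172 with E2 (median 135), 151 to 293 with E4 (median 217) and 210 to 489 with TAM (median 264), where library C35 stood apart at 489. In the test as planned it passed in none of the comparisons with OVX (TAM log2 fold change 0.58, SE 0.19, edgeR adjusted p = 0.092). DESeq2 called it higher with TAM (0.591, DESeq2 adjusted p = 0.0424).

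Col8a1, the type VIII chain known from smooth muscle and endothelium, lay between 20.4 and 42.0 CPM over all 24 libraries, overlapping in all 4 groups, with medians of 26.4 in OVX, 27.1 with E2, 25.2 with E4 and 30.7 with TAM. Its log2 fold change was -0.02 with E4 (95% interval -0.29 to 0.26) and 0.02 with E2 (-0.26 to 0.29). The remaining hexagonal network genes Col8a2 and Col10a1 and the anchoring fibril gene Col7a1 had OVX medians of 3.78, 0.223 and 2.42 CPM, without a call.

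Of the transmembrane collagens, Col23a1 alone exceeded 1 CPM. It spanned 16 to 20.1 CPM in OVX (median 19.3), 11.98 to 17.7 with E2 (median 13.5), 18.3 to 26.7 with E4 (median 19.5) and 18.3 to 31.6 with TAM (median 22.3). Of the 6 E2 libraries, 5 lay below the OVX range. It fell with E2 (log2 fold change -0.40, SE 0.11, edgeR adjusted p = 0.0368), and 3 of 12 fits without 1 library kept the call, with an edgeR adjusted p of 0.0838 without OVX C25. Col13a1 and Col17a1 had OVX medians of 0.401 and 0.245 CPM, and Col25a1, with at most 15 counts in a library, did not pass the filter.

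Col28a1, a collagen known from nerve sheaths, and Col26a1 fall outside the other classes. Col28a1 was at 27.2 to 84.9 CPM in OVX (median 73.1), 30.7 to 59.1 with E2 (median 55.0), 64.2 to 81.5 with E4 (median 71.4) and 44.2 to 84.0 with TAM (median 78.8). The lowest value in OVX belonged to library C5 and the lowest in TAM to library C35, the 2 libraries with few ganglion markers. The fibrillar gene Col5a3 was likewise lowest in these 2 libraries, at 87.4 and 87.3 CPM, against 166 to 321 CPM in the other 22. E2 library C8, with the third lowest sum of ganglion markers (1719 CPM) and the lowest sum of Schwann cell markers (683 CPM), had 30.7 CPM of Col28a1. The part of nerve tissue in these values was not tested. Col26a1 had a median of 3.22 CPM in OVX.

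**Figure D5:**
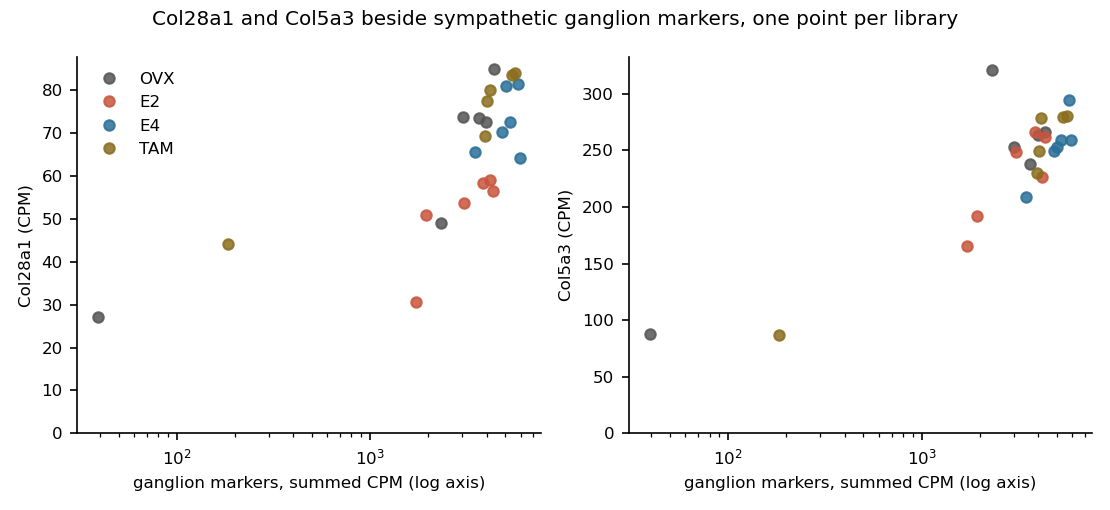
CPM of Col28a1 and Col5a3 (y axes, from 0) against the summed CPM of 10 sympathetic ganglion markers (x axis, log scale), with 1 point per library coloured by group. OVX library C5 and TAM library C35 lie at the far left, at 39.2 and 184 CPM of markers, and have the lowest Col5a3 values.

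A direct comparison of the estrogens asked where E4 and E2 differed, with the caveat that pellet doses were 1 mg and 75 µg. The paper chose the doses for similar estrogenic activity, allowing for differences in receptor affinity, and reports similar gains in uterine weight. Of the 42 genes 1 was lower and 4 were higher with E4 than with E2, where 7.95% of all tested genes were lower and 2.97% higher. Col3a1 was the gene with lower expression (log2 fold change -0.64, SE 0.17, edgeR adjusted p = 0.023). Higher with E4 were Col9a2 (0.93, SE 0.19, edgeR adjusted p = 0.00662), Col18a1 (0.63, SE 0.16, edgeR adjusted p = 0.0241), Col23a1 (0.56, SE 0.11, edgeR adjusted p = 0.00346) and Col27a1 (0.38, SE 0.094, edgeR adjusted p = 0.018). Col9a2 and Col23a1 kept the call in all 12 fits without 1 library. The call of Col3a1 was lost without E2 C8, E4 C19 or E4 C20 (edgeR adjusted p from 0.0586 to 0.064), that of Col27a1 without E2 C8 or E4 C19 (0.0512 and 0.0507), and that of Col18a1 in 5 fits (without E2 C6, C8 or C9, E4 C20 or C36, edgeR adjusted p from 0.0511 to 0.0615). With OVX C5 left out of the shared fit, 12 members were called, with the B cell marker mean as a covariate 2 (Col9a2 and Col23a1), and with the fibroblast marker mean 0, although 11 had an unadjusted p under 0.05. In the fibroblast fit Col3a1 was at -0.099 (edgeR adjusted p = 0.793), Col9a2 at 0.58, Col18a1 at 0.94, Col23a1 at 0.50 and Col27a1 at 0.31, and 6 of 10 fibroblast markers were lower with E4 than with E2. Without E4 C39 the count was 9, with Col5a1, Col5a2, Col6a1 and Col6a3 added as lower. With the fibroblast marker mean as a covariate Col5a1, Col5a2 and Col6a1 had a positive sign (0.035, 0.091 and 0.128). Macrophage markers summed to 966 to 1485 CPM with E2 and 414 to 770 with E4, and their part in these differences was not tested.

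Genes that make, join and remove collagen were counted from lists by function. All counts of these lists stand against 12% of all tested genes lower and 9.65% higher with E4, and 1.23% lower and 2.65% higher with E2, and for lists of 5 to 13 genes a count of 1 or 2 with E4 lies near that share, so nothing is read from it. Of 21 genes for hydroxylation, folding and secretion of chains, 4 were higher and 1 lower with E4, and 2 were higher and 0 lower with E2. Plod2, the lysyl hydroxylase of the telopeptides that sets the kind of cross-link, was at 50.4 to 66.8 CPM in OVX (median 61.6), 149 to 285 with E2 (median 202) and 96.5 to 152 with E4 (median 109). Both estrogen groups lay wholly above OVX. It rose with E2 (log2 fold change 1.80, SE 0.14, edgeR adjusted p = 1.685e-07) and with E4 (0.94, SE 0.13, edgeR adjusted p = 0.000528). The prolyl 3-hydroxylase P3h2 rose with E4 by 0.70 (SE 0.12, edgeR adjusted p = 0.00182), from a median of 4.87 to 7.98 CPM, and the lysyl hydroxylase Plod3 by 0.39 (SE 0.083, edgeR adjusted p = 0.00537).

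Of 8 genes for removal of propeptides, 2 were lower with E4 and 0 were called with E2. They were Bmp1, the procollagen C-proteinase (-0.52, SE 0.13, edgeR adjusted p = 0.00946), and its enhancer Pcolce2 (-0.84, SE 0.19, edgeR adjusted p = 0.00623). Of the 5 lysyl oxidase genes, which start cross-linking, Lox was lower with E4 (-0.46, SE 0.16, edgeR adjusted p = 0.0444), at medians of 151 CPM in OVX and 98.5 with E4, and none was called with E2. Among 11 genes of collagen breakdown and its inhibitors, 2 were lower with E4, the collagenolytic protease Ctsk (-0.70, SE 0.16, edgeR adjusted p = 0.0083) and Fap (-0.54, SE 0.14, edgeR adjusted p = 0.0125). The 2 that were higher with E2 are both metalloproteinase inhibitors, Timp1 (0.81, SE 0.20, edgeR adjusted p = 0.0294) and Timp3 (0.50, SE 0.13, edgeR adjusted p = 0.0388).

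Fibril organizers, the small proteoglycans and glycoproteins that bind fibrils, were lower in 6 of 14 tested genes with E4 and higher in 0, and with E2 lower in 3 and higher in 2. Postn, a matricellular protein, fell with E4 (-1.02, SE 0.16, edgeR adjusted p = 0.00102) and with E2 (-0.83, SE 0.16, edgeR adjusted p = 0.00406), from a median of 716 CPM to 322 and 383. Fmod, a fibril-binding proteoglycan, fell with E2 (-1.22, SE 0.17, edgeR adjusted p = 0.000255) and with E4 (-0.61, SE 0.17, edgeR adjusted p = 0.0205), and the related Aspn rose with E2 (0.91, SE 0.15, edgeR adjusted p = 0.00139). Dpt and Lum, which are also in the fibroblast marker list, were 2 of the 6 lowered with E4.

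Collagen receptors were lower in 4 of 9 tested genes with E4, higher in 1, and lower in 2 with E2, where 12% of all tested genes were lower with E4 and 1.23% with E2. The integrin chain Itga10 fell with E4 (-0.96, SE 0.17, edgeR adjusted p = 0.00214) and E2 (-0.68, SE 0.17, edgeR adjusted p = 0.0281), the collagen-activated kinase Ddr2 fell with E4 (-0.68, SE 0.14, edgeR adjusted p = 0.00486), as did the integrin chain Itga11 (-0.52, SE 0.18, edgeR adjusted p = 0.0434). Of 13 genes of fibrogenic signals and their regulators, 3 were higher and 1 lower with E4, where 9.65% of all tested genes were higher. The 3 were the ligands Tgfb1 and Tgfb2 and the pathway inhibitor Smad7 (0.51, SE 0.12, edgeR adjusted p = 0.00787), so they do not act in 1 direction. The receptor Tgfbr2 rose with E2 (0.80, SE 0.13, edgeR adjusted p = 0.000867), and the ligand Tgfb1 rose with E4 (0.55, SE 0.13, edgeR adjusted p = 0.01). Among 10 laminin, nidogen and proteoglycan partners of type IV collagen, 0 were called with E4, E2 or TAM against OVX. With TAM, 1 gene of all these lists was called, the ligand Tgfb2, named after its value was seen (0.67, SE 0.16, edgeR adjusted p = 0.0351).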

How the data were processed

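RNA of whole carotid arteries was sequenced in paired reads of 150 bases from a stranded mRNA kit. For each library the authors provided a table of estimated counts, not normalized. The submitters' processing notes name bcl2fastq 2.17, Trim Galore, Bowtie2, featureCounts and the build mm10/GRCm38. The settings for strand, mates and shared reads are not given in the sources used here. Between 8.868% and 9.805% of values had decimals, and all were rounded to whole numbers. Of the 44 members, 13 overlap exons of another gene.

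Counts were tested in R 4.3.3 with edgeR 4.0.16 (quasi-likelihood test, TMM scaling, default filter on low counts, Benjamini-Hochberg adjustment over all genes tested). The E4 and E2 comparisons came from 1 fit of the 18 OVX, E2 and E4 libraries (24646 genes), and TAM from a fit of all 24 (25033 genes), without covariates. Standard errors were derived from the F statistic, and intervals are 95% intervals. The scripts were tested on simulated data. Ratios of counts were compared with exact two-sided permutation tests over 924 arrangements (scipy 1.17.1, Python 3.11.15), adjusted over 6 tests.

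Full values are given for members called in any comparison with a mean of at least 1 CPM, at most 4 per class, and for the main chains of the vessel wall, and of each list of related genes the called genes with the 3 largest fold changes with E4 or E2. A gene of these lists is not reported here. The rule for the members uses gene names alone, but it and the lists were chosen with earlier results of these data known. Alternatives were DESeq2 1.42.0, RLE size factors, other filters, only the compared groups, either number series, marker covariates and libraries left out. No 2 libraries of a group agreed within sampling noise (chi-square per degree of freedom at least 11.6 over 60 pairs). Promoter windows came from RefSeq (GRCm38.p6) and gene positions from GENCODE mouse release 21.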

Additional observations from a re-analysis of the deposited data

Results flagged for a closer look

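In 18 of the 168 gene and group combinations of 6 libraries, 1 library stood apart from the other 5 by more than Dixon's 95% criterion allows. Chance alone gives such a gap in about 1 in 20 groups, or 8.4 of 168.

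TAM library C35, which had the fewest ganglion and the most smooth muscle markers of its group, stood apart for 6 genes. It was high for Col4a6 (209 CPM, the others 63.8 to 109), Col6a1 (453, the others 227 to 304), Col6a2 (334, the others 178 to 224) and Col18a1 (489, the others 210 to 289), and low for Col5a3 (87.3, the others 230 to 280) and Col28a1 (44.2, the others 69.4 to 84). In OVX, library C5 was low for Col5a3 at 87.4 CPM (the others 238 to 321) and library C2 high for Col2a1 at 1.46 CPM (the others 0.439 to 0.754).

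E2 library C8 was high for Col4a4 (43.0 CPM, the others 26.6 to 32.2) and Col6a1 (321, the others 271 to 283), and low for Col17a1 (0.0473, the others 0.230 to 0.327) and Col28a1 (30.7, the others 50.8 to 59.1). Also with E2, C9 was high for Col12a1 (36.2 CPM, the others 22.5 to 25.1), C6 for Col22a1 (0.835, the others 0.174 to 0.345) and C29 for Col23a1 (17.7, the others 12 to 13.7). E4 library C39 was high for Col8a1 (38.2 CPM, the others 20.4 to 27), Col9a3 (2.39, the others 1.11 to 1.38) and Col23a1 (26.7, the others 18.3 to 21.2).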

How the results depend on the processing

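Counts of called collagen genes moved with the libraries, covariates and tools used. For E4 against OVX, 9 were called, with 2 in the first number series alone, 1 in the second, 1 with the B cell marker mean as a covariate, 5 with the fibroblast marker mean and 5 to 12 with 1 library left out. For E2 against OVX, 6 were called, with 3 without a filter on low counts, 0 in the first series (10 at an unadjusted p under 0.05), 1 in the second, 10 with the ganglion marker mean, 3 with the B cell marker mean, 8 with the fibroblast marker mean (4 of them among the 6) and 2 to 5 with 1 library left out. For E4 against E2, 5 were called, with 9 in DESeq2, 8 among genes with at least 10 counts in every library, 2 in the first series, 0 in the second (12 unadjusted), 2 with B cell markers, 0 with fibroblast markers (11 unadjusted), 12 without OVX C5, 11 in a fit of these groups only and 2 to 9 with 1 E4 or E2 library left out. For TAM against OVX, 3 were called, with 8 in DESeq2, 5 with RLE size factors, 1 without a filter, 5 with at least 10 counts in every library, 0 in the first series (6 unadjusted), 0 in the second (13 unadjusted), 9 with ganglion markers, 0 with B cell markers (8 unadjusted), 12 with fibroblast markers, 1 without OVX C5 and TAM C35, 1 when E4 C38 and E2 C9 were left out as well, 0 in a fit of these groups only (13 unadjusted) and 0 to 4 with 1 library left out. A single series holds fewer libraries, and the cause of the other moves was not tested. The fibroblast covariate and the omission of 4 libraries were chosen after seeing the data.

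With 1 library left out, the log2 ratio of Col3a1 to Col1a1 differed from OVX by -0.508 to -0.384 with E4, -0.164 to -0.0231 with E2 and -0.508 to -0.440 with TAM. That of Col1a1 to Col1a2 differed by -0.0739 to -0.0218 with E4, -0.0997 to -0.0229 with E2 and 0.132 to 0.193 with TAM, where the unadjusted p of the exact permutation test rose above 0.05 in 6 of the 12 omissions (range 0.013 to 0.0563). With the number series as a covariate 9 genes were called for E4 against OVX, 5 for E2 against OVX, 7 for E4 against E2 and 2 for TAM against OVX.

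Among the refitted log2 fold changes, which cover called genes and the main chains of the vessel wall, those that turned sign against OVX belonged to genes without a call in that comparison. With E4 they were 0.0299 for Col5a1, 0.0818 for Col6a1, 0.138 for Col6a3 and 0.0476 for Col8a1 with fibroblast markers, -0.115 for Col6a2 in the first series, 0.130 for Col6a3 and 0.221 for Col8a1 in the second, and 8.5e-05 and 0.000152 for Col8a1 with DESeq2 and RLE. With E2 they were -0.0366 for Col4a1 and -0.0430 for Col4a2 in the first series, -0.00552 for Col5a1, -0.0467 for Col6a1 and -0.0345 for Col8a1 with fibroblast markers, and for Col8a1 -0.121 with B cell markers, -0.00519 without OVX C5 and -0.0222 without the 4 libraries. With TAM they were -0.0905 for Col5a2, -0.0839 for Col6a1 and -0.0868 for Col6a3 in the first series. Differences of mean log2 CPM within a series turned for further uncalled values, for example with TAM to -0.19 for Col4a3 and -0.20 for Col4a4 in the first and 0.10 for Col14a1 in the second, and with E4 to -0.02 for Col27a1 in the second. Between E4 and E2, fibroblast markers turned Col5a1 (0.035), Col5a2 (0.091), Col6a1 (0.128) and Col28a1 (-0.128), of which none was called without the covariate. No paired analysis was possible because no animal number occurs in more than 1 group.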
